A study of Mus musculus with 9 samples.

Results

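The ATF4 stress response genes are 10 genes, Atf4 itself and 9 genes known as its amino acid and stress targets or partners, namely Atf5, Atf3, Ddit3, Trib3, Ddit4, Chac1, Asns, Phgdh and Psat1. They were found by symbol in the count table, where each matched 1 of 53801 rows, and all 10 passed the filter on low counts. Their mRNA was measured by RNA-seq in 9 libraries of cultured mouse spermatogonial stem cells (SSCs), which fall into 3 groups of 3. The paper grew SSCs on feeder cells in its screen and growth curves. For the RNA-seq cultures it does not say whether feeder cells or the growth factor GDNF were present. Fibroblast markers were also measured in every group, so the levels may not be those of SSCs alone. All cells carry Prmt5 flox/flox and Rosa26-CreERT2, a Cre recombinase that the ubiquitous Rosa26 locus drives and that tamoxifen activates. All groups were given 4-hydroxytamoxifen (4OHT) at 1 µM to delete Prmt5, the gene for a protein arginine methyltransferase. For the 4OHT group no further treatment is named, and whether it received a control virus is not stated in the sources used here. The MU and OE groups were read here, from the paper, as 4OHT-treated cells with lentiviral PRMT5 (E444Q), a catalytically dead mutant, and PRMT5 (WT). The sample labels give only these abbreviations, and an ethanol-treated group with intact Prmt5 was not analysed here. The number of mice or clones behind the cells, and whether replicates were separate cultures, are not given in the sources used here, so the p-values measure the spread between these libraries, which may be technical.

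Total counts ranged from 78751996 to 365719548 per library, with the MU libraries the deepest. Levels are given as CPM, each gene's count relative to its library size after scaling with edgeR's TMM factors. Prmt5 was at 30.3 ± 1.92 CPM (SD, n = 3) in 4OHT, 146.1 ± 0.957 in MU and 1076 ± 7.61 in OE, so the constructs also differed in the amount of Prmt5 mRNA. The counts do not separate construct from endogenous transcripts. All 12 germ cell markers averaged at least 1 CPM in every group, and so did all 15 fibroblast markers, while 3 of 15 macrophage markers were under 1 CPM in 4OHT (Ptprc, Tyrobp and Fcer1g) and another 3 in MU and OE (C1qa, C1qb and C1qc).

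ATF4 is the main transcription factor of the integrated stress response. Kinases that sense a shortage of amino acids, unfolded protein in the endoplasmic reticulum, viral RNA or a lack of haem phosphorylate the initiation factor eIF2, which slows most protein synthesis but lets Atf4 mRNA be translated. ATF4 then binds with C/EBP proteins to composite sites and raises genes for amino acid synthesis, uptake and tRNA charging, and CHOP, the product of Ddit3, under lasting stress. Since ATF4 is controlled largely by translation, Atf4 mRNA does not give the amount of the protein.

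The letters such composite sites share, TGATGNAA, were searched on both strands of the RefSeq promoters (GRCm38.p6), from 250 bases before to 50 bases after each start. All 10 genes matched this table, with 12 windows, and 4 of the genes held the letters, while 3.97% of all 32851 promoter windows did. The former is a count of genes and the latter a share of windows. Apart from Atf4, the genes were picked as known ATF4 targets or partners, so these figures are a description and no independent support. The 4 matches are shown because such letters are those of the composite sites, though a match is not evidence of binding. Capitals mark the match, which on the gene's strand can read in either direction.
Atf3, chr1:191183390-191183489, minus strand: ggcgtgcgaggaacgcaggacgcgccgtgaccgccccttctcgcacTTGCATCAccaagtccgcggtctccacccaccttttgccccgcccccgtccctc
Chac1, chr2:119351003-119351102, plus strand: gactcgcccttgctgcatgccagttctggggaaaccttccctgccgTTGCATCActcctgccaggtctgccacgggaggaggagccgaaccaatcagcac
Asns, chr6:7693214-7693243, minus strand: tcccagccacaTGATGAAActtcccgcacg
Trib3, chr2:152344028-152344057, minus strand: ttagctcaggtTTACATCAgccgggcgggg
In Atf3 and Chac1 the match starts at position -110 and -193 from the transcription start and has the stricter form TGATGCAA, read as its reverse complement, which 0.895% of all windows hold. In Asns it starts at -23, and in Trib3 at 15, inside the RefSeq transcript. The GENCODE models used for the gene coordinates start elsewhere, so that the match of Asns lies inside the GENCODE gene and that of Trib3 just upstream of it, and the match of Atf3 lies inside a longer GENCODE gene. The windows of the other members did not hold these letters, which says nothing about sites further away. These 4 genes did not move together: Atf3 and Trib3 were higher with the constructs, Chac1 was lower and Asns did not pass the test.

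Atf4 (ENSMUSG00000042406, GRCm38 chr15:80255184-80257541) was lower with both constructs. It was measured at 149.6, 159.4 and 160.5 CPM in the 4OHT libraries, at 137.6, 133.6 and 134.8 CPM in MU, and at 117.9, 128.2 and 132.5 CPM in OE. The 3 groups did not overlap, with 4OHT highest and OE lowest. Compared with 4OHT, Atf4 fell by 0.31 in OE (standard error 0.053, adjusted p = 0.000163 from edgeR) and by 0.21 log2 units in MU (standard error 0.052, adjusted p = 0.00358 from edgeR), changes of -19.3% and -13.5%. The call in MU is the weaker of the pair, since it was lost without the filter on low counts (log2 fold change -0.15, adjusted p = 0.0645 from edgeR) and with library totals alone as the scale (-0.097, adjusted p = 0.113 from edgeR). MU and OE differed by 0.10 on the log2 scale, with a 95% confidence interval from -0.013 to 0.21 (adjusted p = 0.48 from edgeR).

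Atf5 (ENSMUSG00000038539, chr7:44812256-44816658) encodes a relative of ATF4 whose mRNA is likewise translated under stress and which is linked to the mitochondrial unfolded protein response. Its levels were 78.1, 97.6 and 86.4 CPM in 4OHT, 54.0, 52.6 and 52.9 CPM in MU and 41.6, 44.3 and 42.6 CPM in OE. The groups stood clear of each other, and the gap between MU and OE was wider than the spread within either. Atf5 was 2.04-fold lower in OE than in 4OHT (log2 fold change -1.03, standard error 0.071, adjusted p = 2.16e-08 from edgeR) and 1.64-fold lower in MU (log2 fold change -0.72, standard error 0.07, adjusted p = 8.33e-07 from edgeR). It was the 1 member of 10 that differed between the constructs, 1.24-fold higher in MU than in OE (log2 fold change 0.31, 95% confidence interval from 0.16 to 0.46, adjusted p = 0.0261 from edgeR). Leaving out any single MU or OE library kept the direction but lost the call, with log2 fold changes from 0.29 to 0.33 and adjusted p-values from 0.0759 to 0.134 (edgeR). Nup62 and Il4i1 overlap Atf5 on the opposite strand, and whether the counting used strand is not stated.

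Atf3 (ENSMUSG00000026628, chr1:191170296-191218039) encodes a factor that many stresses induce and that ATF4 can activate. In contrast to Atf4 and Atf5 it was higher with both constructs. It was at 5.75, 7.42 and 6.34 CPM in 4OHT, at 9.89, 9.47 and 9.41 CPM in MU and at 10.6, 12.5 and 9.88 CPM in OE. Every library with a construct was above every 4OHT library, while MU and OE overlapped slightly. The log2 fold change against 4OHT was 0.76 in OE (standard error 0.118, adjusted p = 7.84e-05 from edgeR) and 0.56 in MU (standard error 0.117, adjusted p = 0.00096 from edgeR), and that of MU against OE was -0.20 with an interval from -0.44 to 0.052 (adjusted p = 0.546 from edgeR).

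Ddit3 (ENSMUSG00000025408, chr10:127290774-127296288), the gene for the pro-apoptotic factor CHOP, was lower with both constructs. Its values were 14.1, 12.4 and 14.1 CPM in 4OHT, 9.63, 10.04 and 8.81 CPM in MU, and 8.90, 8.38 and 9.51 CPM in OE. The 4OHT libraries were the highest, and MU and OE overlapped. Ddit3 fell by 0.60 in OE (standard error 0.095, adjusted p = 8.72e-05 from edgeR) and by 0.51 log2 units in MU (standard error 0.094, adjusted p = 0.000326 from edgeR). Ddit3 overlaps Mars on the opposite strand, a methionyl-tRNA synthetase gene with log2 fold changes against 4OHT of 0.037 in OE and -0.0012 in MU, neither of which passed the test. Without knowledge of the strand, reads of such a pair cannot be told apart. Gm4189 also overlaps Ddit3 on the opposite strand, and another gene entry named Ddit3 overlaps it on the same strand. Reads shared with that entry could not be told apart by strand.

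**Figure D1:**
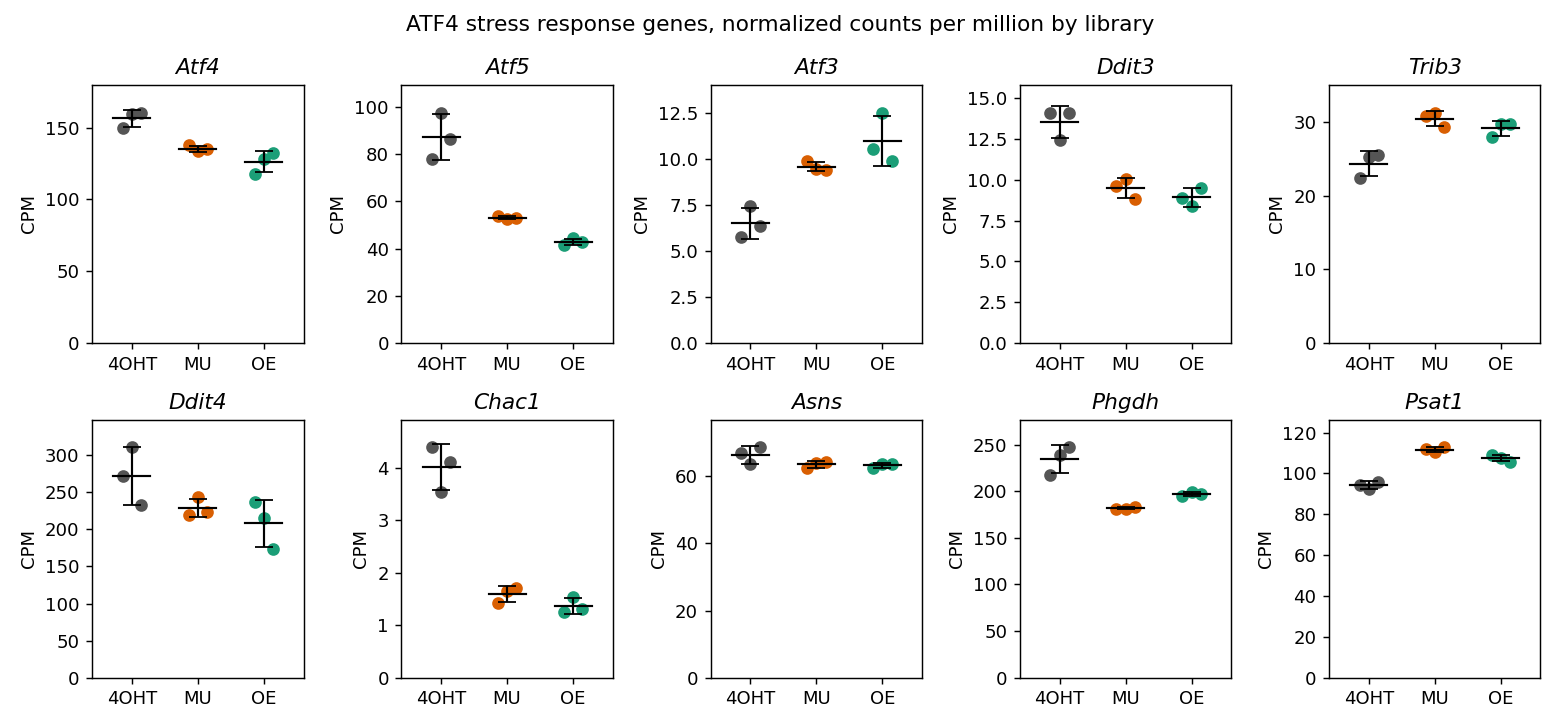
Normalized CPM (linear axis from 0) of the 10 genes in each of the 9 libraries. Points are libraries, lines the means and bars the SD of 3 libraries. Atf4, Atf5, Ddit3, Phgdh and Chac1 lie lower in MU and OE than in every 4OHT library, Atf3, Trib3 and Psat1 lie higher, and Asns and Ddit4 overlap between 4OHT and the constructs.

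Trib3 (ENSMUSG00000032715, chr2:152337422-152344032) encodes a pseudokinase that ATF4 and CHOP induce and that restrains them in return. It was at 22.4, 25.2 and 25.5 CPM in 4OHT, at 30.8, 31.3 and 29.3 CPM in MU and at 27.97, 29.7 and 29.8 CPM in OE. The libraries with a construct were all above those of 4OHT. Trib3 rose by 19.6% in OE (log2 fold change 0.26, adjusted p = 0.0044 from edgeR) and by 25.1% in MU (log2 fold change 0.32, adjusted p = 0.000845 from edgeR). Trib3 thus rose while Ddit3, the gene for its inducer CHOP, fell.

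Ddit4 (ENSMUSG00000020108, chr10:59949669-59951834) encodes REDD1, an inhibitor of mTORC1 that ATF4 and several other stress signals raise. The 4OHT libraries held 272.1, 310.6 and 233.5 CPM, those of MU 219.8, 243.1 and 223.6 CPM, and those of OE 236.3, 214.9 and 173.7 CPM. It was among the most variable members, with a coefficient of variation of 14.2% in 4OHT and 15.3% in OE, and its groups overlapped. Ddit4 passed the test in OE (log2 fold change -0.39, standard error 0.108, adjusted p = 0.00723 from edgeR) and missed it in MU (log2 fold change -0.25, standard error 0.108, adjusted p = 0.0644 from edgeR). The call in OE was kept when any single library was left out, but narrowly without the second 4OHT library (-0.28, adjusted p = 0.0495 from edgeR). With library totals alone the value in OE was -0.30 (adjusted p = 0.0343 from edgeR). The value in MU depends on single 4OHT libraries, from -0.13 without the second (adjusted p = 0.339 from edgeR) to -0.35 without the third (adjusted p = 0.00563 from edgeR). It was -0.14 with library totals alone (adjusted p = 0.313 from edgeR) and -0.19 without the filter on low counts (adjusted p = 0.164 from edgeR). The fit with the replicate number as a block called it (-0.24, adjusted p = 0.0216 from edgeR). So did DESeq2's size factors (RLE) in edgeR (-0.28, adjusted p = 0.0399 from edgeR) and counts divided by 4 (-0.28, adjusted p = 0.0303 from edgeR). Without the third OE library it was called too (-0.26, adjusted p = 0.0243 from edgeR).

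Chac1 (ENSMUSG00000027313, chr2:119351229-119354381) encodes an enzyme that breaks down glutathione and is a sensitive ATF4 and CHOP target. It had the largest fold change of the 10 genes in both comparisons with 4OHT. It was at 4.39, 3.54 and 4.12 CPM in 4OHT, at 1.43, 1.65 and 1.71 CPM in MU and at 1.24, 1.53 and 1.31 CPM in OE. The 4OHT libraries were clear of all others, while MU and OE overlapped. The level was 2.95-fold lower in OE (log2 fold change -1.56, standard error 0.171, adjusted p = 2.64e-06 from edgeR) and 2.51-fold lower in MU (log2 fold change -1.33, standard error 0.167, adjusted p = 1.04e-05 from edgeR). Chac1 was the least abundant member, and its lowest library held 101 counts, or fewer read pairs if a pair stands for about 4 counts.

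The enzymes of amino acid synthesis did not follow a single direction. Asns (ENSMUSG00000029752, chr6:7675169-7693254), the asparagine synthetase gene and a textbook ATF4 target, did not pass the test in any comparison, at 66.8, 63.5 and 68.6 CPM in 4OHT, 62.5, 63.9 and 64.2 CPM in MU and 62.4, 63.7 and 63.6 CPM in OE. These ranges overlap. Its log2 fold change was -0.069 in OE (95% confidence interval from -0.17 to 0.035, adjusted p = 0.244 from edgeR) and -0.062 in MU (from -0.17 to 0.041, adjusted p = 0.295 from edgeR), and with library totals alone as the scale it turned to 0.019 and 0.050.

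Phgdh (ENSMUSG00000053398, chr3:98313170-98339990) and Psat1 (ENSMUSG00000024640, chr19:15904678-15947337) encode the first and the next enzyme of serine synthesis, and they moved in opposite directions. Phgdh was at 217.3, 239.0 and 247.1 CPM in 4OHT, at 181.3, 181.3 and 182.8 CPM in MU and at 194.6, 199.3 and 196.6 CPM in OE. Psat1 was at 94.6, 92.4 and 96.0 CPM in 4OHT, at 111.8, 110.3 and 112.8 CPM in MU and at 109.0, 107.6 and 105.8 CPM in OE. In both genes the 3 groups did not overlap, and MU lay farther from 4OHT than OE did.
Phgdh fell by 0.25 in OE (adjusted p = 0.000666 from edgeR) and by 0.37 log2 units in MU (adjusted p = 2.62e-05 from edgeR). Psat1 rose by 0.19 in OE (adjusted p = 0.0018 from edgeR) and by 0.24 in MU (adjusted p = 0.000238 from edgeR). Psph, the gene for the last enzyme of the pathway, which was named for this role after its values were seen, had log2 fold changes of 0.13 and 0.10 that did not pass the test. Phgdh has a processed pseudogene on chromosome 7 and Psat1 overlaps a pseudogene, and how reads with several alignments were counted is not stated.
Phgdh differed between MU and OE by -0.11 on the log2 scale, with an unadjusted p of 0.0415 and an adjusted p of 0.369 from edgeR. A model of only these 6 libraries called it (log2 fold change -0.11, adjusted p = 0.0247 from edgeR).

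Of the 10 genes, 9 changed in OE against 4OHT, 3 higher and 6 lower, beside 57.8% of all 22452 genes tested. In MU against 4OHT, 8 changed, 3 higher and 5 lower, beside 56.0% of all genes. With so many genes called, the directions and sizes say more than the counts: of all genes, 29.9% were higher and 27.9% lower in OE, and 29.5% and 26.5% in MU. The median log2 fold change of the 10 genes was -0.28 in OE and -0.23 in MU, beside 0.018 and 0.043 over all genes tested. Their median size of change, whatever its sign, was 0.35 in OE and 0.34 in MU, while all genes had 0.54 and 0.51. All genes tested include those of low counts, where fold changes vary more. No genes of like level were compared, so these sizes do not show that the 10 genes changed less than others of their level. The groups did not overlap in 8 of the 10 genes in each comparison, beside 61.6% and 63.9% of all genes. A change of at least 1.5-fold was called for 2 genes in each comparison, Atf5 and Chac1, both lower. With 3 libraries against 3, an exact permutation test of 1 gene cannot give a p below 0.1, so the calls rest on edgeR's model across all genes.

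**Figure D2:**
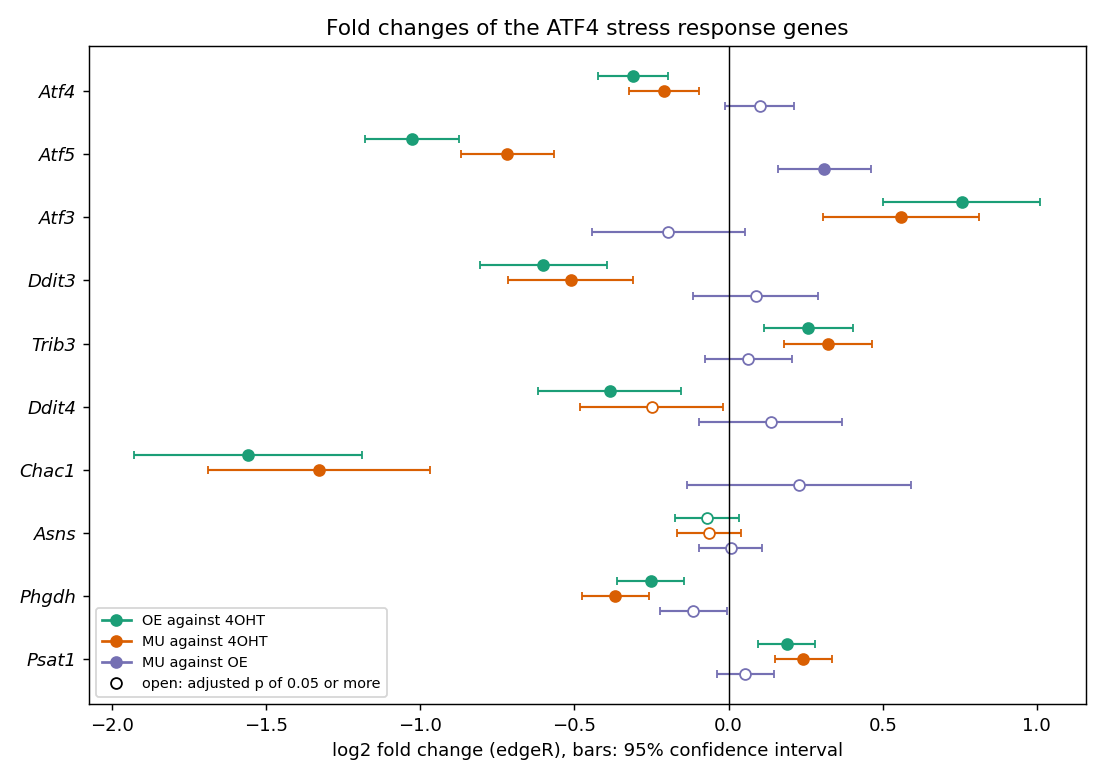
Log2 fold changes of the 10 genes from edgeR in the 3 comparisons, with 95% confidence intervals as bars (filled points have an adjusted p under 0.05). Chac1 and Atf5 lie farthest to the left against 4OHT, Atf3 farthest to the right, and of the differences between MU and OE the point of Atf5 is the filled one.

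Between MU and OE, 1 gene of 10 was called, higher in MU, beside 3.17% of all genes tested (2.12% higher and 1.06% lower). Of the 10, 2 had an unadjusted p under 0.05 (Atf5 and Phgdh). DESeq2 also called 1. The groups did not overlap in 4 genes (Atf4, Psat1, Phgdh and Atf5), beside 25.9% of all genes. Of the 9 genes that were not called, the widest intervals were those of Chac1, from -0.13 to 0.59, and Atf3, from -0.44 to 0.052. The narrowest was that of Psat1, from -0.037 to 0.15. The interval of Ddit3 ran from -0.11 to 0.29, that of Trib3 from -0.078 to 0.21 and that of Ddit4 from -0.096 to 0.37. In 7 genes the MU mean lay between those of 4OHT and OE, as in 54.6% of all genes tested. The others were Trib3, Psat1 and Phgdh, in which MU was the farther from 4OHT.

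Per kilobase of exon, which allows levels to be compared between genes, Ddit4 was the most abundant member in every group and Chac1 the least. With 4OHT, the mean CPM per kilobase was 155.0 for Ddit4, 94.3 for Phgdh, 66.4 for Atf4, 43.8 for Atf5, 24.2 for Asns, 22.2 for Psat1, 11.5 for Trib3, 7.91 for Ddit3, 3.02 for Atf3 and 2.45 for Chac1. Neighbours in this order were apart in all 3 libraries, except Atf3 and Chac1, whose ranges overlapped. In this order, Atf5 stood above Asns and Psat1 in 4OHT and below both in OE, at 21.5 beside 23.1 and 25.3 CPM per kilobase. Asns and Psat1 also changed places, since Asns was the higher in 4OHT and Psat1 in OE and in MU (23.2 and 26.2). In MU, Atf5 and Psat1 overlapped. The ratio of Atf3 to Ddit3 also changed, from 3.02 and 7.91 in 4OHT to 5.10 and 5.21 CPM per kilobase in OE, where the ranges of the 2 genes overlapped.

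The pathway around these genes was described with 7 lists of 92 genes in all, every one of which was tested. In OE against 4OHT, 31 were higher and 36 lower, 72.8% in all, and in MU against 4OHT 28 were higher and 41 lower, 75.0% in all, beside 57.8% and 56.0% of all genes tested. These shares are a description and carry no test of the pathway. Between MU and OE, 1 gene of the 92 was called, 1.09% beside 3.17% of all genes, and 7 had an unadjusted p under 0.05.

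Upstream of ATF4, the 4 kinases of eIF2 moved apart. Eif2ak4, which encodes the amino acid sensor GCN2, rose by 0.74 in OE and 0.70 in MU on the log2 scale, to 78.3 ± 1.98 and 76.3 ± 2.00 CPM from 47.0 ± 4.32 CPM in 4OHT (SD, n = 3). Eif2ak1, the gene for the haem-regulated kinase, rose by 0.59 and 0.55. Eif2ak2, the gene for the kinase that senses double-stranded RNA, had log2 fold changes of -1.01 and -0.96. Eif2ak3, which encodes the endoplasmic reticulum kinase PERK and was named to complete the kinases, was at -0.10 in OE, which did not pass, and at -0.14 in MU (adjusted p = 0.0493 from edgeR), a call that was lost in several alternatives, in which the value went down to -0.023 (adjusted p = 0.727 from edgeR). Of the whole list, 5 of 12 genes were higher and 2 lower in OE, and 5 higher and 4 lower in MU, Eif2ak3 included. Eif2b2, a subunit of the exchange factor eIF2B, was among the lower ones, at -0.29 and -0.32. The transcripts do not show how far eIF2 was phosphorylated.

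Among partners of ATF4 and other stress regulators, 9 of 13 genes were lower in each comparison, and 2 and 3 were higher in OE and MU. Sesn2, which encodes a sensor of leucine that restrains mTORC1, was at 133.0 ± 11.4 CPM in 4OHT, 60.1 ± 0.722 in MU and 57.5 ± 2.99 in OE (SD, n = 3), log2 fold changes of -1.15 and -1.21. Cebpb, which encodes a dimer partner of ATF4, was at -1.12 in OE and -1.26 in MU, with a wide spread in 4OHT (123.6 ± 34.8 CPM, SD, n = 3). Cebpg, which encodes another partner, rose by 0.60 and 0.51, so the transcripts of both partners went opposite ways. Gdf15, which encodes a secreted stress cytokine, rose by 1.14 and 1.09 from a low level of 1.59 CPM.

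**Figure D3:**
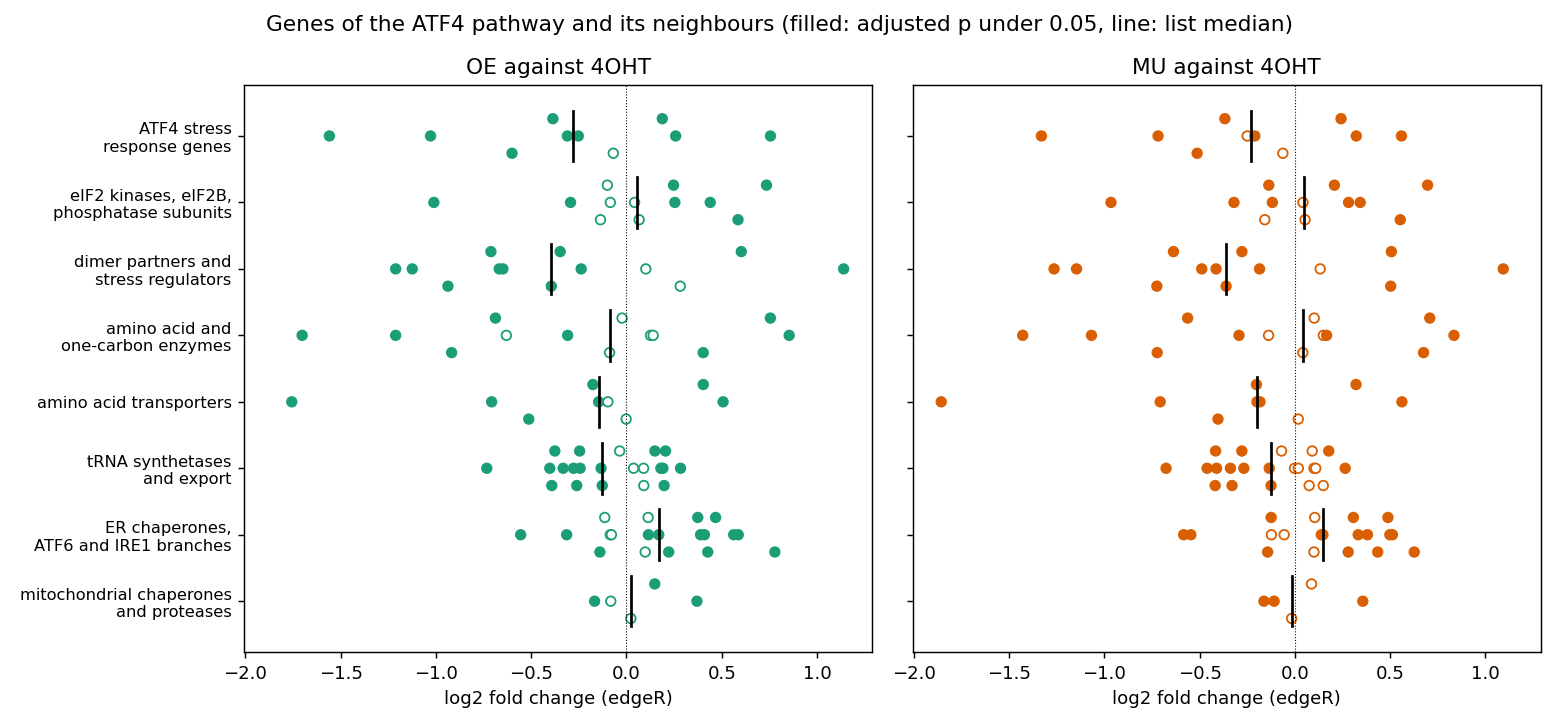
Log2 fold changes from edgeR of the 10 genes and of 7 lists around them in OE and in MU against 4OHT, comparisons that share the 4OHT libraries. Points are genes (filled where the adjusted p was under 0.05) and lines the list medians, which run from -0.39 for partners and stress regulators to 0.17 for endoplasmic reticulum chaperones in OE.

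The enzymes of amino acid and one-carbon metabolism were split as Phgdh and Psat1 were. Of 13, 3 were higher and 5 lower in OE, and 4 higher and 5 lower in MU. Mthfd2, a mitochondrial folate enzyme gene often used as an ATF4 target, rose by 0.85 and 0.84, and Shmt1, the gene for the cytosolic serine hydroxymethyltransferase, by 0.76 and 0.71. Bcat1, which encodes a transaminase of branched-chain amino acids, was at -1.70 and -1.43, and Mthfd1l, another mitochondrial folate enzyme gene, at -1.21 and -1.07. Of the 9 amino acid transporters, 2 were higher in each comparison, and 5 were lower in OE and 6 in MU. Slc7a11, the cystine transporter gene, went from 18.6 ± 0.0504 CPM in 4OHT to 5.14 ± 0.352 in MU and 5.50 ± 0.722 in OE (SD, n = 3), log2 fold changes of -1.86 and -1.76. Slc7a3, which encodes a carrier of cationic amino acids, was at -0.71 in each. The higher ones were Slc1a5, a glutamine carrier gene, at 0.51 and 0.56, and Slc7a5, which encodes a carrier of leucine, at 0.40 and 0.32.

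Of 21 genes for aminoacyl-tRNA synthetases and tRNA export, 11 were lower in each comparison, while 6 were higher in OE and 2 in MU. The changes were small, from -0.73 to 0.28 on the log2 scale in OE. Cars, for cysteine, fell by 0.73 and 0.68 and Rars, for arginine, by 0.40 and 0.46. Xpot, the tRNA exporter gene, rose by 0.28 and 0.26, and Vars, for valine, by 0.21 in OE (adjusted p = 0.0171 from edgeR), with 0.15 in MU (adjusted p = 0.0722 from edgeR). Without the first 4OHT library Vars was at 0.10 in OE (adjusted p = 0.0623 from edgeR) and 0.048 in MU (adjusted p = 0.382 from edgeR).

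In the other arms of the unfolded protein response more genes were higher than lower. Of 19 genes for endoplasmic reticulum chaperones and the ATF6 and IRE1 branches, 11 were higher in each comparison and 3 and 4 were lower in OE and MU, with median log2 fold changes of 0.17 and 0.15. Sdf2l1 rose by 0.78 and 0.63 and Dnajb9, which encodes a chaperone that restrains IRE1, by 0.59 and 0.51. Canx, the calnexin gene, was at -0.56 and -0.55. Edem1, which encodes a factor that sends misfolded glycoproteins to degradation, was the single gene of the lists that differed between the constructs. It was at 123.6 ± 1.87 CPM in 4OHT, 82.5 ± 2.21 in MU and 99.4 ± 1.98 in OE (SD, n = 3), so the log2 fold change of MU against OE was -0.27 (adjusted p = 0.00323 from edgeR). Of 5 genes for mitochondrial chaperones and proteases, 2 were higher and 1 lower in OE and 1 higher and 2 lower in MU. Hspe1 rose by 0.37 and 0.36 and Clpp, a protease gene, was at -0.17 and -0.16. Without the third 4OHT library Hspe1 was at 0.17 and 0.16 and kept its calls. Both calls were lost with DESeq2 (adjusted p = 0.0802 in OE and 0.107 in MU). They were also lost with only the 6 libraries compared (adjusted p = 0.0593 and 0.0743 from edgeR). Leaving out any single OE library lost the call in OE (adjusted p from 0.0557 to 0.11 from edgeR). Leaving out any single MU library lost that in MU (adjusted p from 0.0503 to 0.105 from edgeR). With library totals alone Clpp was at -0.079 in OE (adjusted p = 0.26 from edgeR) and -0.050 in MU (adjusted p = 0.488 from edgeR). Hspd1, the chaperonin gene, was at 0.15 in OE (adjusted p = 0.00844 from edgeR) and 0.088 in MU, which did not pass.

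In the promoter windows of the pathway genes, 72 of which matched the table, TGATGNAA was found in 13. That is 18.1% of these genes, beside 3.97% of all windows. A gene was counted if any of its windows matched, so the former is a share of genes and the latter of windows. The lists were drawn up around ATF4, so the higher share is a description and no independent support. All 13 are named here because of this match. Slc7a11 and Nupr1 were lower with both constructs and Herpud1 higher. By mean CPM, Got1, Slc1a4, Vldlr, Aars, Gars, Iars and Yars were lower in MU and OE than in 4OHT, and Tars was higher. Pycr1 was at 9.76 CPM in 4OHT, 10.05 in MU and 9.62 in OE. Fgf21 averaged under 1 CPM in every group.

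The makeup of the libraries moved with the same groups. The summed level of 15 fibroblast markers ranged from 10549 to 12765 CPM in 4OHT, from 5821 to 5912 in MU and from 4563 to 4646 in OE. All 15 were lower in OE than in 4OHT, 14 were lower and 1 higher in MU, and 14 were higher in MU than in OE. The summed level of 15 macrophage markers ranged from 227.4 to 248.1 CPM in 4OHT, from 1157 to 1190 in MU and from 2245 to 2370 in OE, with 11 higher and 4 lower in each construct, and none of them was at 0 in any group. Lyz2 made up most of each sum, at a mean of 151.3 CPM in 4OHT, 943.9 in MU and 1878 in OE. The 4 lower ones were C1qa, C1qb, C1qc and Apoe. The 12 germ cell markers summed to between 2218 and 2323 CPM in 4OHT, 2702 and 2782 in MU, and 2940 and 2983 in OE, with 6 of them higher and 5 lower in each construct. Zbtb16, Gfra1, Ret, Etv5 and Nanos3 were lower in every construct library than in every 4OHT library, and Id4 overlapped. Etv5 went from a mean of 125.5 CPM in 4OHT to 13.8 in MU and 12.1 in OE, and Gfra1 from 120.4 to 27.5 and 28.2. Dazl, among the higher ones, went from 381.0 to 686.6 and 790.6 CPM, so the sum hides opposite changes. In bulk libraries, fewer cells of a type and less RNA per cell cannot be told apart. The part of these shifts in the levels of the 10 genes was not tested.

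**Figure D4:**
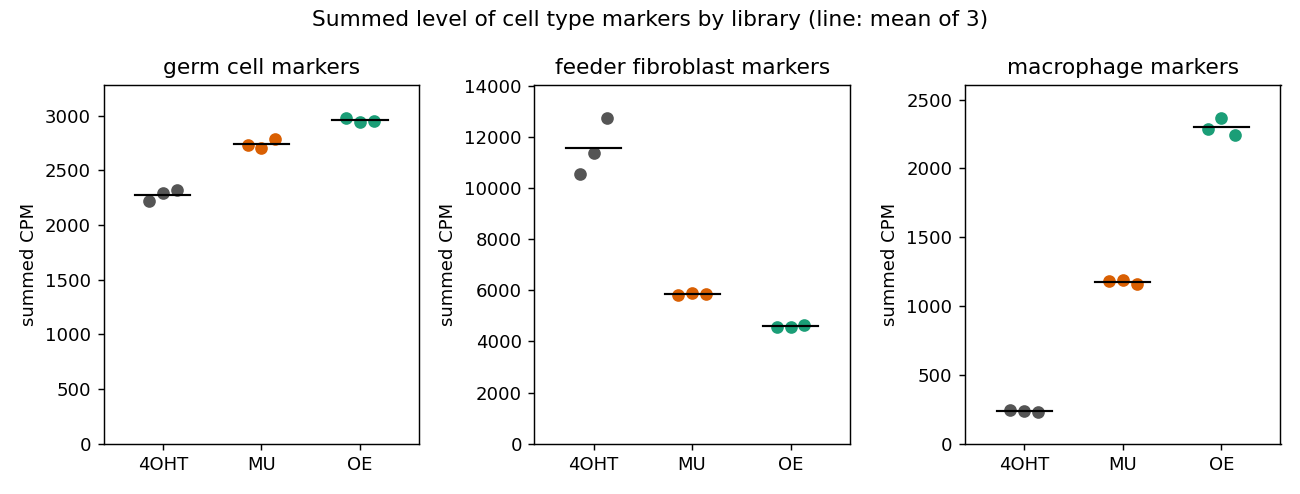
Summed CPM (linear axis from 0) of 12 germ cell, 15 feeder fibroblast and 15 macrophage markers in each library, with lines at the means of 3 libraries. The fibroblast sum is highest in 4OHT and lowest in OE, the macrophage and germ cell sums are lowest in 4OHT and highest in OE, and MU lies between in each.

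Across the 9 libraries, the genes whose log2 CPM followed that of Atf4 most closely, among genes of at least 1 CPM, were Vmac, Slc16a11, Tnfaip6, St3gal3 and Mvk, with Pearson coefficients from 0.982 to 0.985. The 9 libraries fall into 3 groups, so these coefficients describe mainly the order of the groups and carry no test. Vmac went from 17.0 CPM in 4OHT to 12.02 in MU and 10.8 in OE, and Slc16a11 from 15.5 to 9.52 and 8.20 CPM.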

How the data were processed

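mRNA-seq counts of 9 libraries were used (3 each of 4OHT, MU and OE, grouped by the sample titles). The deposited values are unnormalized counts, 1 whole number for each gene and library. According to the paper and the submitters' processing notes, the authors used BBmap and Trimmomatic 0.39 for trimming, HISAT2 2.2.1 for alignment to GRCm38, and StringTie 2.2.1 for quantification. How StringTie's output became whole numbers, the strand and the treatment of reads with several alignments are not given in the sources used here. A value of 4 counts was 1.35 to 1.84 times as frequent as the mean of 3 and 5, so a read pair may be about 4 counts. A count of 3 corresponds to between 0.00792 and 0.0395 CPM, counting error only.

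In R 4.3.3, edgeR 4.0.16 was used with its filterByExpr filter (at least 10 counts, and 15 in total), which left 22452 genes, TMM and a quasi-likelihood model of group over all 9 libraries (common biological coefficient of variation 0.155). P-values were adjusted by Benjamini-Hochberg over all genes tested, with a threshold of 0.05. CPM use TMM sizes. Coordinates and exon lengths came from GENCODE vM21 and promoters from RefSeq (GRCm38.p6). The steps were tested on simulated data.

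Alternatives were RLE factors, no filter, DESeq2 1.42.0, only the 6 libraries compared, the replicate number as a block, counts divided by 4, a change of at least 1.5-fold, each library left out and, chosen after seeing the data, library totals alone. Text names all 10 members and, per list, the 2 highest and 2 lowest called genes of OE against 4OHT and the highest and lowest of MU against OE, with a mean of at least 1 CPM. The members and lists were chosen with earlier results of these data known. Between same-numbered libraries of different groups, deviations from the group means correlated by -0.017 to 0.052 over genes, so the numbers were not taken to pair them.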

Additional observations from a re-analysis of the deposited data

Results flagged for a closer look

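Atf5 stood out because its change from 4OHT differed between MU and OE, with a log2 difference of 0.31 (edgeR, adjusted p = 0.0261). It was higher in all 3 MU libraries than in all 3 OE libraries. Its call was lost when any single MU or OE library was left out (adjusted p from 0.0759 to 0.134 from edgeR). Edem1 stood out because its change from 4OHT also differed between the constructs. Its difference of -0.27 (adjusted p = 0.00323 from edgeR) kept its call when any single library was left out. Its MU libraries were all below those of OE.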

How the results depend on the processing

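The counts of called genes among the 10 rest on small changes. With a change of at least 1.5-fold required, the count fell to 2 in OE against 4OHT, 2 in MU against 4OHT and 0 in MU against OE, since that test asks for larger changes. Under the other alternatives it stayed at 9 in OE against 4OHT and lay between 7 and 9 in MU against 4OHT. Leaving out 1 library gave 9 to 9, 8 to 9 and, in MU against OE, 0 to 1 genes. Fitting MU and OE without the 4OHT libraries gave 2 genes in MU against OE (Atf5 and Phgdh). Asns turned to 0.019 in OE and 0.050 in MU against 4OHT with library totals alone, which shifted all genes by 0.088 and 0.112, and between MU and OE it turned to -0.0041 with RLE factors and with DESeq2 and to -0.0031 without the first OE library. With the replicate block the count in MU against 4OHT was 9, through Ddit4 (-0.24), and the calls in the other comparisons numbered 9 and 1 as without it. Library totals alone also moved Phgdh in OE against 4OHT to -0.16, which kept its call. The lowest count of the 10 genes was 101, which may stand for about 4 times fewer read pairs, so depth limits Chac1 most, and 3 libraries a group limit every test.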
